A study of Mus musculus with 12 samples.

Results

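NF-kB is a family of transcription factors that wait in the cytoplasm, held there by inhibitory proteins, until a receptor signal frees them to enter the nucleus. The genes described here are 9 of the core of this pathway: the subunits Nfkb1, Nfkb2, Rela and Relb, the inhibitor Nfkbia, the inhibitor kinase genes Chuk, Ikbkb and Ikbkg, and the receptor-proximal kinase Irak4. They were taken by symbol. All 9 were found among the 750 genes of the deposited table, and each was followed over all 12 samples in 4 groups of 3. In the canonical branch, Ikbkb with its scaffold Ikbkg marks the inhibitor for destruction and releases dimers of Rela with the processed product of Nfkb1. In the alternative branch, Chuk acts on the Nfkb2 precursor, whose processed form pairs with Relb. In macrophages and B cells, which are common in the peritoneal cavity, these branches serve innate signals and survival signals of the TNF receptor family.

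The samples were cells of peritoneal ascites from mice that had received 5000000 ovarian tumour cells (named KMF in the design text) by intraperitoneal injection, with RNA taken on day 21 from 2000000 cells. In the FAKKD group the tumour cells carried the genotype label KTFAKKD, whose parts the labels do not spell out, and the mice were untreated. The untreated FAKWT group, its reference, received KTFAKWT cells, with focal adhesion kinase (FAK) labelled as wild type. In the inhibitor group, mice with KTFAKWT cells were gavaged with the FAK inhibitor VS4716 at 100 mg/kg, 2 times a day. The vehicle group received gavage without the drug. Its 3 titles say FAKWT while its genotype field says KTFAKKD, and here the title decided. The labels used here give no strain, age or clone, and nothing in them says that each replicate was its own mouse. The p-values therefore rest on the spread among samples, part of which may be technical. Ptk2, which encodes FAK, was not analysed here, and no check of the labels against it was made.

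Values are log2 normalized molecule counts from a NanoString panel, an assay that counts colour-coded probes without amplification. In each sample all values equalled a whole count times 1 factor, and the total of these recovered counts lay between 588778 and 760152. The factor was 1.46 ± 0.19 in FAKKD and 0.753 ± 0.085 in untreated FAKWT samples, and 1.17 ± 0.063 in inhibitor and 0.788 ± 0.094 in vehicle samples (SD, n = 3 each). The median log2 fold change over all genes on the deposited scale was 0.95 in FAKKD against FAKWT and 0.54 with the inhibitor against vehicle, and each change is therefore given on 2 scales, as deposited and panel-centred, the second after each sample's median gene was set to a common value. Counting limits the precision little for these genes: the lowest count of any member was 152 (Ikbkg), where the counting error alone is 8.11%. A level belongs to its own probe, so levels are compared between samples and not between genes.

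The cells are a mixture, and fewer cells of a type cannot be told apart from less RNA per cell. All measured defining markers of tumour, macrophage, B and T cells had a mean count above 0 in every group. This held for every gene of the table, so it does not show that a cell type was present. Some markers had few counts, with group means down to 9.67 for Cd79a (B cells, FAKWT) and 10.3 for Cd5 (T cells, vehicle). For Cd14 (macrophages, FAKWT) the lowest was 15. The 5 epithelial and tumour markers (Epcam, Cdh1, Msln, Muc1 and Itgb4) made up 0.227 to 0.237% of all counts in FAKKD and 1.03 to 1.1% in FAKWT samples, and 0.933 to 0.958% in inhibitor and 0.817 to 0.982% in vehicle samples. The 8 macrophage markers made up 18.1 to 19.5% in FAKKD and 8.78 to 10.9% in FAKWT samples, and 13.3 to 14.4% in inhibitor and 10.5 to 12.7% in vehicle samples. For the 8 B-cell markers the shares were 0.273 to 0.63% in FAKKD and 0.13 to 0.193% in FAKWT samples, and 0.492 to 0.619% in inhibitor and 0.138 to 0.211% in vehicle samples. For the 8 T-cell markers they were 0.0409 to 0.0547% in FAKKD and 0.0221 to 0.0283% in FAKWT samples, and 0.0386 to 0.0492% in inhibitor and 0.0197 to 0.0323% in vehicle samples. The 5 mast-cell markers made up 0.518 to 1.21% in FAKKD and 0.138 to 0.455% in FAKWT samples, and 0.4 to 0.565% in inhibitor and 0.041 to 0.181% in vehicle samples. The 9 endothelial and stromal markers made up 0.271 to 0.307% in FAKKD and 0.509 to 0.533% in FAKWT samples, and 0.295 to 0.354% in inhibitor and 0.388 to 0.45% in vehicle samples. Macrophage, B-cell, T-cell and mast-cell shares were thus higher in both FAK comparisons without overlap, and the endothelial and stromal share lower. Shares are sums in which abundant genes weigh most, and single markers split. Of the endothelial and stromal markers, 4 were called higher and 1 lower in FAKKD on either scale. The inhibitor comparison had 6 higher and 0 lower as deposited, and 3 and 1 panel-centred. Macrophage markers rose as deposited, 7 in FAKKD and 6 with the inhibitor, with 0 lower. Once centred, 4 were higher and 1 lower in FAKKD, and 2 and 2 with the inhibitor. All 8 B-cell markers were called higher in FAKKD on either scale. With the inhibitor 7 of them were higher and 0 lower as deposited, and 5 and 1 panel-centred. The tumour share was lower without overlap in FAKKD and overlapped with the inhibitor, where single markers split: Epcam, Itgb4 and Muc1 fell on both scales, while Msln and Cdh1 rose as deposited and did not pass panel-centred. The summed share of the 5 dendritic-cell markers was lower without overlap with the inhibitor, at 0.0788 to 0.0906% against 0.0952 to 0.121% with vehicle. No single one of them was called lower there on either scale, and 1 was called higher as deposited. The dendritic-cell share overlapped in FAKKD, and the neutrophil share overlapped in both comparisons. The part of all these markers in the results on NF-kB genes was not tested.

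Nfkb2, which encodes the precursor of the alternative branch, fell in both FAK comparisons on either scale. Its RefSeq promoters (GRCm38.p6, each from 250 bases before to 50 after a transcript start) are shown because the gene carries the clearest change and because its own promoters hold the kB consensus, the sequence that NF-kB dimers bind. The first, at chr19:46304487-46304786 on the plus strand, held 2 separate matches to the consensus on either strand, and the second, at chr19:46305445-46305744, held 2. A further start, at chr19:46305680-46305979, held 1 match, which it shares with the second. Capitals mark the matches, and overlapping matches on both strands were joined to a single stretch.
Nfkb2 promoter 1: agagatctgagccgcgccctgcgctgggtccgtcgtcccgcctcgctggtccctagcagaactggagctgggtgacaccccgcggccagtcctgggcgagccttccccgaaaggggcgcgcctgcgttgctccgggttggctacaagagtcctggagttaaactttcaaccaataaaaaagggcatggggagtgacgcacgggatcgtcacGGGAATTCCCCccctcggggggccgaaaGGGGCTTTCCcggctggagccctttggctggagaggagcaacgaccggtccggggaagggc
Nfkb2 promoter 2: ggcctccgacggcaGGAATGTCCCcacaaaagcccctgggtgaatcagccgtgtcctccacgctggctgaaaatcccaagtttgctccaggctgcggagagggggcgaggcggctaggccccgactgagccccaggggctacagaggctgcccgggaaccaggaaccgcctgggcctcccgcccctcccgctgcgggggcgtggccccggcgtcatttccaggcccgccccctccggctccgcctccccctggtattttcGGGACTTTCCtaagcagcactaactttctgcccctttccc
Of 32851 mouse promoters of this length, 8.46% held at least 1 such stretch, and of 543 other panel genes with a promoter 15.8% did in at least 1 of their promoters. Promoters of Rela, Chuk, Irak4 and Ikbkg held none in these windows. Those of Nfkb1, Relb and Ikbkb were not used here. A match is a run of letters and not a measured binding site.

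Nfkb2 had deposited log2 values of 10.10, 10.03 and 10.37 in FAKKD samples and 10.94, 11.07 and 10.99 in untreated FAKWT samples. With the inhibitor it had 10.21, 10.36 and 10.44, and with vehicle 11.10, 10.80 and 10.84. All 6 samples with altered FAK lay below all 6 controls. In recovered counts, before any scaling, Nfkb2 had 771, 629 and 1029 molecules in FAKKD and 2986, 2769 and 2459 in FAKWT samples. It had 1042, 1153 and 1115 in inhibitor and 2921, 1993 and 2544 in vehicle samples. The gap between the groups was thus wider before the authors' scaling than after it. The log2 fold change was -0.83 ± 0.11 in FAKKD against FAKWT (SE, n = 3 and 3, limma adjusted p = 5.10e-05) and -0.58 ± 0.11 with the inhibitor against vehicle (adjusted p = 8.81e-04). Panel-centred values were -1.88 ± 0.13 (adjusted p = 1.97e-07) and -1.32 ± 0.13 (adjusted p = 5.25e-06), and under all other scalings tried the gene stayed lower and passed.

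Relb, the partner of processed Nfkb2, had deposited values of 8.43, 8.48 and 8.63 in FAKKD and 9.22, 9.20 and 9.16 in untreated FAKWT samples. It had 9.02, 9.02 and 9.35 in inhibitor and 9.26, 9.19 and 9.21 in vehicle samples. FAKKD samples lay apart from all other samples, while 1 inhibitor sample lay above the vehicle samples and 2 below. Relb fell in FAKKD with a log2 fold change of -0.68 ± 0.10 (adjusted p = 1.01e-04) and a panel-centred change of -1.73 ± 0.14 (adjusted p = 6.31e-07). With the inhibitor the deposited change was -0.09 ± 0.10 (adjusted p = 0.47, 95% confidence interval -0.31 to 0.13), and the panel-centred change was -0.83 ± 0.14 (adjusted p = 4.44e-04). The fall with the inhibitor therefore rests on the scale, whereas the fall in FAKKD does not.

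Nfkb1, the gene of the canonical precursor, had 9.50, 9.47 and 9.46 in FAKKD and 8.88, 8.91 and 9.14 in untreated FAKWT samples on the deposited scale. It had 9.55, 9.42 and 9.56 in inhibitor and 9.05, 8.85 and 8.88 in vehicle samples. On this scale all samples with altered FAK lay above all controls, opposite to Nfkb2. In recovered counts, before any scaling, Nfkb1 had 507, 426 and 545 in FAKKD and 715, 619 and 684 in FAKWT samples. It was thus lower in FAKKD without overlap, as Nfkb2 was. Inhibitor samples had 659, 603 and 606 and vehicle samples 706, 514 and 657, which overlapped. The deposited log2 fold change was 0.50 ± 0.09 in FAKKD (adjusted p = 5.62e-04) and 0.58 ± 0.09 with the inhibitor (adjusted p = 2.35e-04). After panel centring the direction turned, to -0.55 ± 0.11 in FAKKD (adjusted p = 9.08e-04) and -0.16 ± 0.11 with the inhibitor (adjusted p = 0.27), so Nfkb1 was higher than in the controls as deposited but had not kept up with the median gene in FAKKD. With quantile normalization the FAKKD change was -0.18 and did not pass (adjusted p = 0.141), and the inhibitor change was 0.09 (adjusted p = 0.508).

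Rela, the transactivating canonical subunit, had 9.66, 9.73 and 9.65 in FAKKD and 9.79, 9.69 and 9.89 in untreated FAKWT samples, and these groups overlapped. It had 9.99, 10.17 and 10.07 in inhibitor and 9.62, 9.60 and 9.69 in vehicle samples, with no overlap. Its deposited change was -0.11 ± 0.08 in FAKKD (adjusted p = 0.235) and 0.44 ± 0.08 with the inhibitor (adjusted p = 5.83e-04). After panel centring Rela fell in FAKKD, with -1.16 ± 0.11 (adjusted p = 1.43e-06). With the inhibitor the panel-centred value was -0.30 ± 0.11 (adjusted p = 0.0332), and this call was lost without inhibitor replicate 4 (-0.26), inhibitor replicate 5 (-0.29), vehicle replicate 4 (-0.33) or vehicle replicate 9 (-0.22), with adjusted p-values of 0.117, 0.0832, 0.0536 and 0.131. It was lost as well under quantile normalization (-0.08) and with scaling to total counts (-0.18). Rel, the remaining family member on the panel, had a log2 fold change of 0.49 ± 0.10 in FAKKD (adjusted p = 0.00116) and 0.86 ± 0.10 with the inhibitor (adjusted p = 3.42e-05), and panel-centred changes of -0.56 ± 0.11 (adjusted p = 8.32e-04) and 0.12 ± 0.11 (adjusted p = 0.403).

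**Figure D1:**
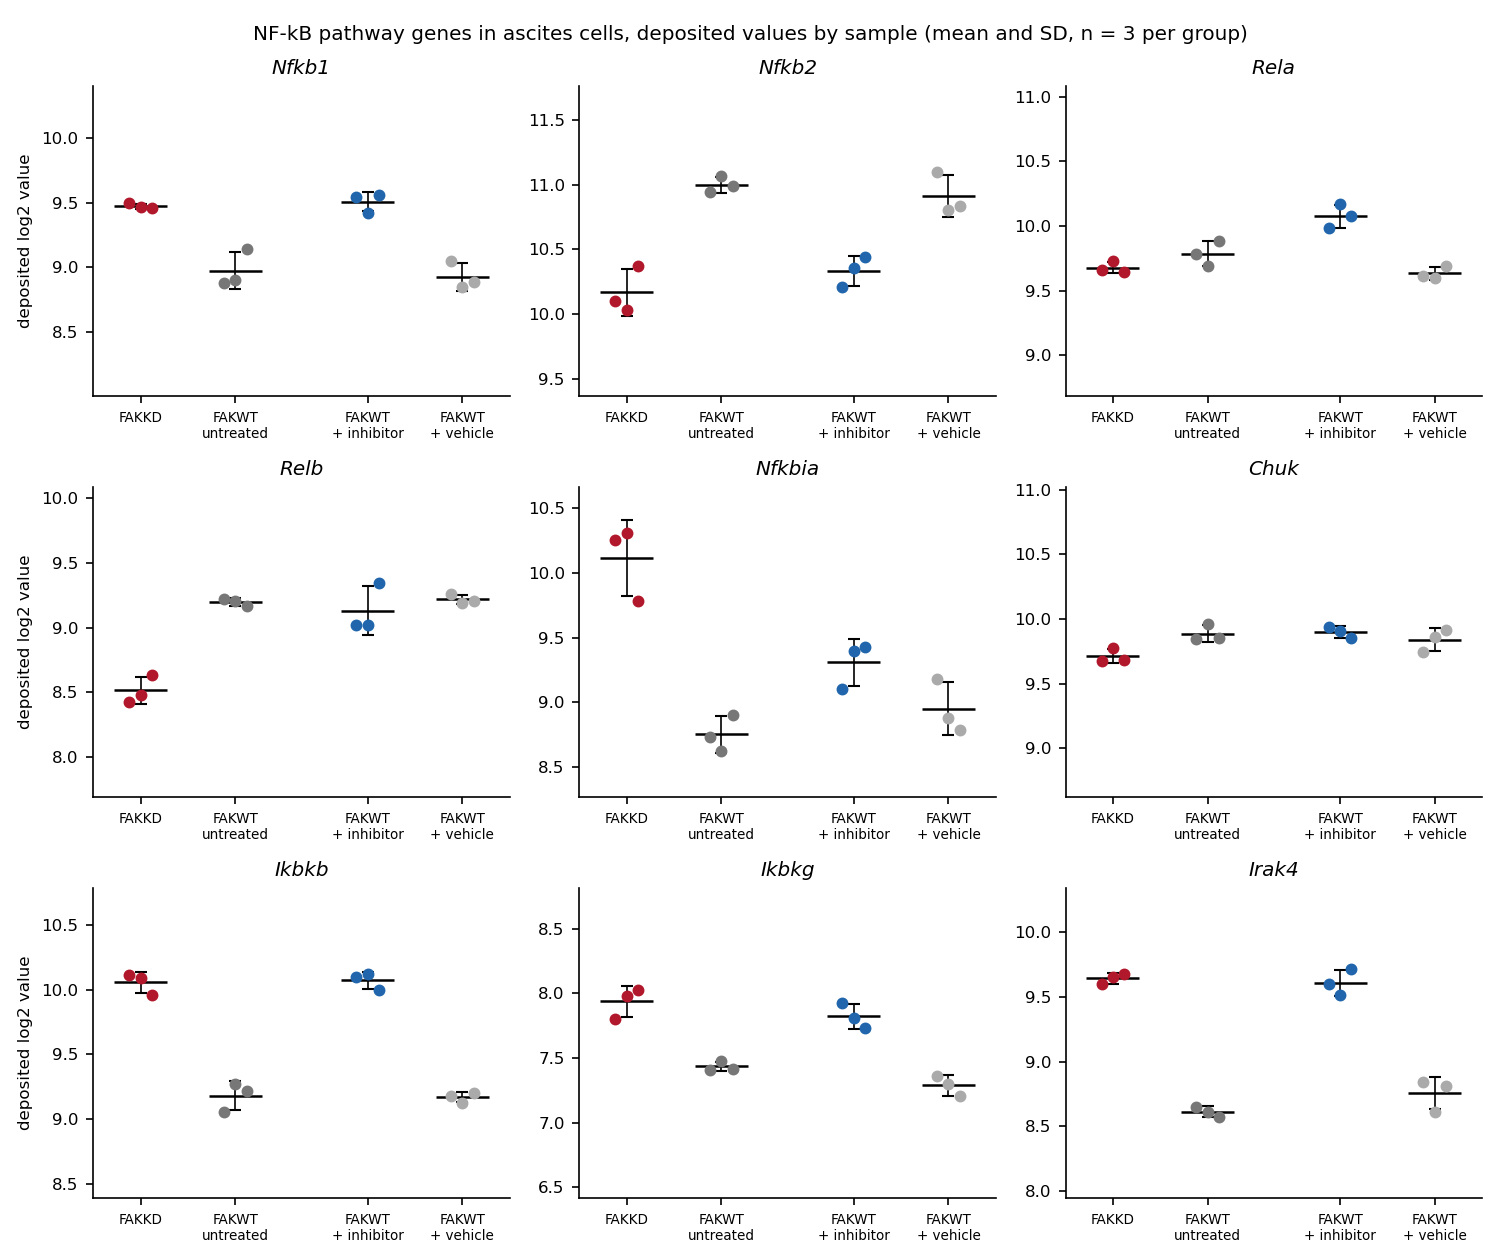
Deposited log2 values (y axis, each panel spanning the same range of log2 units) of the 9 genes in each of the 12 samples, with points for samples, horizontal lines for group means and bars for SD (n = 3). Nfkb2 lies lower in FAKKD and inhibitor samples than in their controls, Nfkb1, Ikbkb, Ikbkg and Irak4 lie higher, and Nfkbia is highest in FAKKD samples.

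Nfkbia encodes the inhibitor that binds Rela dimers and is itself a classical target of NF-kB, so that its transcription closes a feedback loop. Its promoter (chr12:55492598-55492897, minus strand, RefSeq, GRCm38.p6) is shown for this reason and held 1 match to the kB consensus, in capitals.
Nfkbia promoter: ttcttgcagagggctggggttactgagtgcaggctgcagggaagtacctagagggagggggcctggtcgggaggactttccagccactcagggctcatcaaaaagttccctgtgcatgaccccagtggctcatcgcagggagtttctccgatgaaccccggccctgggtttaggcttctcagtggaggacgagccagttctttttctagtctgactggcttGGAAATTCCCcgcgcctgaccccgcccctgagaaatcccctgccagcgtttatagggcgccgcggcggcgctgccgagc
Nfkbia had deposited values of 10.26, 10.31 and 9.78 in FAKKD and 8.73, 8.62 and 8.90 in untreated FAKWT samples. It had 9.10, 9.40 and 9.43 in inhibitor and 9.18, 8.88 and 8.79 in vehicle samples. The FAKKD samples lay above all others, and the inhibitor and vehicle samples overlapped. The log2 fold change in FAKKD was 1.37 ± 0.16 (adjusted p = 1.61e-05), the highest of the 9 genes. Its panel-centred change was 0.31 ± 0.15 and did not pass (adjusted p = 0.103), although it passed without FAKKD replicate 5, the lowest of its group (0.47, adjusted p = 0.0157), and under quantile normalization (0.69, adjusted p = 0.00184). With the inhibitor Nfkbia had 0.36 ± 0.16 on the deposited scale (adjusted p = 0.073) and -0.38 ± 0.15 panel-centred (adjusted p = 0.0607). These inhibitor values passed without inhibitor replicate 4 (0.46, adjusted p = 0.0438) or vehicle replicate 3 (0.48, adjusted p = 0.0329) on the deposited scale, and without inhibitor replicate 6 (-0.50, adjusted p = 0.027) after centring, where the sign was opposite. The centred value also passed with array weights (-0.48, adjusted p = 0.00865) and with only the 2 groups compared (-0.38, adjusted p = 0.0449). In 7 of 10 alternatives other than leaving out samples it still did not pass.

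The 3 genes of the inhibitor kinase complex did not move alike. Chuk, which encodes IKK-alpha, had 9.68, 9.78 and 9.68 in FAKKD and 9.84, 9.96 and 9.86 in untreated FAKWT samples, and 9.94, 9.91 and 9.85 in inhibitor and 9.75, 9.86 and 9.92 in vehicle samples. Its deposited change was -0.17 ± 0.08 in FAKKD (adjusted p = 0.0556, and 0.0495 with a change of -0.21 without FAKKD replicate 4) and 0.06 ± 0.08 with the inhibitor (adjusted p = 0.515). The FAKKD change also passed with array weights (adjusted p = 0.0161) and without the 25% of genes with the lowest mean (adjusted p = 0.0397). With untreated and vehicle samples together as control it passed narrowly (adjusted p = 0.0499). In 3 of 7 alternatives other than leaving out samples it still did not pass. As deposited the FAKKD samples lay below the FAKWT samples without overlap, and inhibitor and vehicle samples overlapped. Chuk fell on the panel-centred scale, with -1.23 ± 0.11 in FAKKD (adjusted p = 1.04e-06) and -0.68 ± 0.11 with the inhibitor (adjusted p = 2.30e-04). Ikbkb, which encodes IKK-beta, had 10.12, 10.10 and 9.96 in FAKKD and 9.06, 9.27 and 9.22 in untreated FAKWT samples, and 10.10, 10.12 and 9.998 in inhibitor and 9.18, 9.13 and 9.20 in vehicle samples. All 6 samples with altered FAK exceeded all 6 controls, with log2 fold changes of 0.88 ± 0.08 in FAKKD (adjusted p = 3.24e-06) and 0.90 ± 0.08 with the inhibitor (adjusted p = 5.95e-06). After centring Ikbkb had -0.18 ± 0.09 (adjusted p = 0.126) and 0.16 ± 0.09 (adjusted p = 0.18), and the first of these was 0.17 under quantile normalization (adjusted p = 0.0924). The inhibitor change of Ikbkb passed as higher under quantile normalization (0.37, adjusted p = 0.00229), without the 25% of genes with the lowest mean (0.50, adjusted p = 2.39e-04), with total-count scaling (0.29, adjusted p = 0.0113) and with voom (0.29, adjusted p = 0.0096). Recovered counts of Ikbkb differed little, at 658 to 779 in FAKKD and 721 to 807 in FAKWT samples, so before scaling the groups overlapped.

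Ikbkg, the gene of the scaffold NEMO, had 7.80, 7.98 and 8.03 in FAKKD and 7.41, 7.48 and 7.42 in untreated FAKWT samples, and 7.92, 7.81 and 7.73 in inhibitor and 7.36, 7.30 and 7.20 in vehicle samples. It rose on the deposited scale, with fold changes in log2 units of 0.50 ± 0.10 in FAKKD (adjusted p = 0.00103) and 0.53 ± 0.10 with the inhibitor (adjusted p = 8.68e-04), and its panel-centred changes were -0.55 ± 0.12 (adjusted p = 0.00128) and -0.21 ± 0.12 (adjusted p = 0.168). Without the 25% of genes with the lowest mean, the FAKKD change of Ikbkg was -0.23 and no longer passed (adjusted p = 0.0521). Irak4, a kinase that carries Toll-like and interleukin-1 receptor signals, had 9.60, 9.65 and 9.68 in FAKKD and 8.65, 8.61 and 8.57 in untreated FAKWT samples, and 9.60, 9.51 and 9.72 in inhibitor and 8.84, 8.61 and 8.81 in vehicle samples. Its deposited changes of 1.03 ± 0.09 (adjusted p = 1.86e-06) and 0.85 ± 0.09 (adjusted p = 1.35e-05) exceeded the median over all genes (0.95 and 0.54), and panel-centred it had -0.02 ± 0.13 (adjusted p = 0.926) and 0.11 ± 0.13 (adjusted p = 0.523). Under quantile normalization these were 0.34 (adjusted p = 0.0231) and 0.36 (adjusted p = 0.0187).

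**Figure D2:**
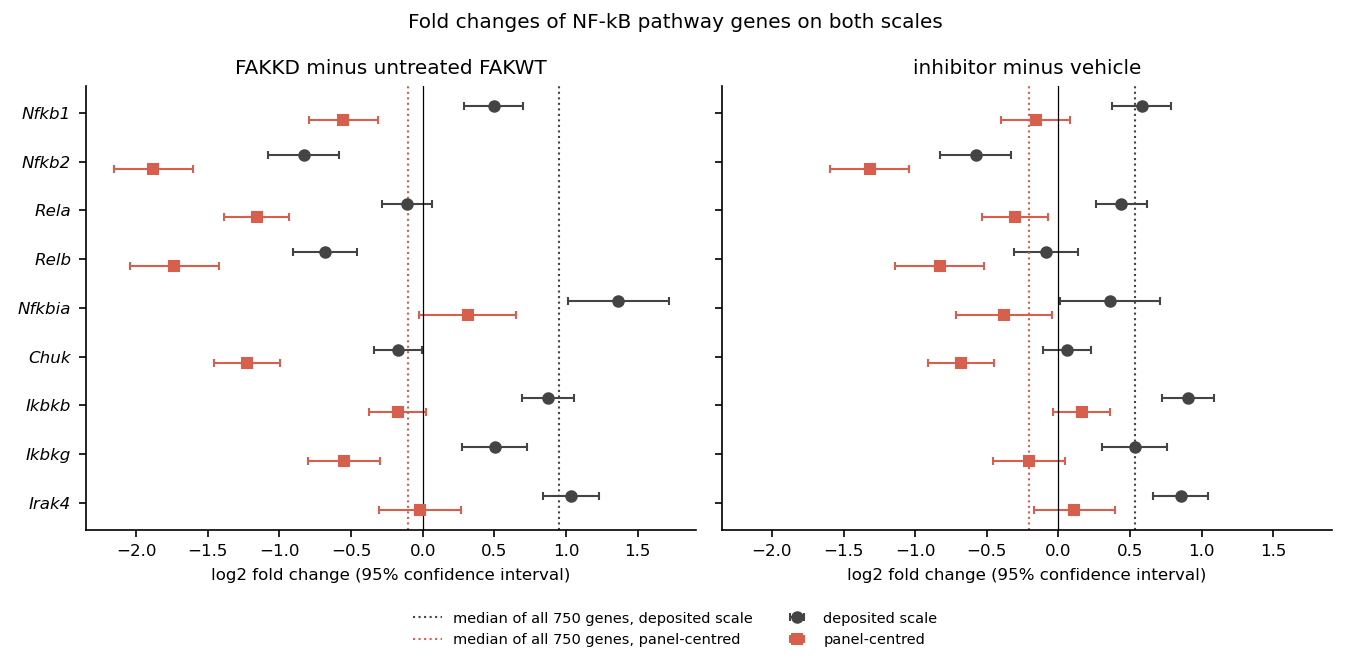
Log2 fold changes with 95% confidence intervals (x axis) of the 9 genes in FAKKD against untreated FAKWT samples and with the inhibitor against vehicle, as deposited (circles) and panel-centred (squares), with dotted lines at the median of all 750 genes. Nfkb2 lies left of 0 on both scales in both comparisons with intervals that exclude 0, as do Relb and Chuk in FAKKD. Relb with the inhibitor and Rela in FAKKD also lie left of 0 on both scales, but their deposited intervals include 0.

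With limma and a threshold of 0.05 on the adjusted p, 7 of the 9 genes passed in FAKKD on the deposited scale (74.5% of all genes), of which 5 were higher (65.1% of all genes) and 2 lower (9.47%). Panel-centred, 6 passed (58.1%), with 6 lower (34.5%) and 0 higher (23.6%). The median log2 fold change of the 9 was 0.50 as deposited and -0.55 panel-centred, while over all genes it was 0.95 and -0.10. FAKKD and FAKWT samples did not overlap for 5 members that were higher and 3 that were lower as deposited, against 66.1% and 10.7% of all genes, and for 0 higher and 7 lower after centring, against 25.1% and 36.1%. With the inhibitor 6 members passed on the deposited scale (59.7%), of which 5 were higher (49.2%) and 1 lower (10.5%). Panel-centred, 4 passed (46.5%), with 4 lower (28.8%) and 0 higher (17.7%). Inhibitor and vehicle samples did not overlap for 5 higher and 1 lower as deposited (55.1% and 11.9% of all genes) and for 0 higher and 6 lower after centring (19.9% and 34.7%). The medians there were 0.44 and -0.30 for the 9 genes and 0.54 and -0.20 for all genes. The panel-centred split depends on which genes set the median: without the 25% of genes with the lowest mean, values of the 9 genes shifted by 0.32 in FAKKD and 0.34 with the inhibitor, 2 members were called higher and 5 lower in FAKKD, and 2 higher and 3 lower with the inhibitor. The share of higher calls among all calls moved likewise, to 54.7% against 40.6% in FAKKD and to 60.9% against 38.1% with the inhibitor (54.1% under quantile normalization).

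Between vehicle and untreated FAKWT samples, 0 of the 9 genes passed on either scale in limma, as did 0% of all genes, and 0 members passed with voom on the recovered counts. At an unadjusted p under 0.05, 93 genes (12.4%) passed on the deposited scale, with 0 members among them, and 99 (13.2%) after centring, with Ikbkg and Rela. The largest deposited change of a member was that of Nfkbia, at 0.20 ± 0.16 (adjusted p = 0.689), followed by Rela at -0.15 ± 0.08 (adjusted p = 0.526) and Ikbkg at -0.15 ± 0.10 (adjusted p = 0.639). Samples did not overlap for 0 members that were higher and 1 that was lower as deposited, Ikbkg (12% and 4.13% of all genes), and for 0 and 2 after centring, Nfkb2 and Ikbkg (8.8% and 10.5%). This comparison shares its samples with the FAKKD and inhibitor comparisons.

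A ratio of 2 genes within a sample does not depend on the sample's factor or on the median gene, and 5 such ratios were compared. The ratio's level depends on the probes, so only its difference between groups is read. The log2 ratio of Nfkb2 to Nfkb1 was 0.60, 0.56 and 0.92 in FAKKD and 2.06, 2.16 and 1.85 in untreated FAKWT samples, and 0.66, 0.94 and 0.88 in inhibitor and 2.05, 1.96 and 1.95 in vehicle samples. It differed by -1.33 in FAKKD and by -1.16 with the inhibitor, without overlap, and by -0.04 between vehicle and untreated samples. Over both FAK comparisons the mean difference was -1.24 (exact two-sided permutation test within each comparison, p = 0.005, the smallest this design can give; adjusted p = 0.00625 over 5 ratios). Within a single comparison of 3 against 3 samples the test cannot go below 0.1, which each non-overlapping ratio reached.

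The log2 ratio of Relb to Rela was -1.23, -1.25 and -1.01 in FAKKD and -0.56, -0.48 and -0.72 in untreated FAKWT samples, and -0.96, -1.15 and -0.73 in inhibitor and -0.36, -0.41 and -0.49 in vehicle samples. Its differences of -0.57 and -0.53 were close in size (mean -0.55, exact permutation p = 0.005, adjusted p = 0.00625). For the kinases, the log2 ratio of Chuk to Ikbkb was -0.44, -0.32 and -0.28 in FAKKD and 0.79, 0.69 and 0.64 in untreated FAKWT samples, and -0.16, -0.21 and -0.14 in inhibitor and 0.57, 0.73 and 0.71 in vehicle samples. This ratio was lower in all 6 samples with altered FAK than in all 6 controls, with a mean difference of -0.95 (exact permutation p = 0.005, adjusted p = 0.00625). Ikbkg to Ikbkb differed less, by -0.37 in FAKKD and -0.37 with the inhibitor (mean -0.37, exact permutation p = 0.005, adjusted p = 0.00625), and by -0.14 between vehicle and untreated samples, without overlap. The genes of the alternative branch, Nfkb2, Relb and Chuk, were thus each lower against the canonical counterpart chosen here in both FAK comparisons. This shows unequal change and not which gene of a ratio moved. Ikbkg, itself of the canonical branch, was lower against Ikbkb as well, so the trait was not particular to the alternative branch. Neither other pairings of the members nor pairs of other panel genes were tested as ratios. Panel-centred, 58.1% of all genes passed in FAKKD and 46.5% with the inhibitor. How often pairs of other genes separate in the same way is not known, so these separations are not shown to be particular to NF-kB genes.

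The ratio of Nfkbia to Rela was the exception. Its log2 value was 0.60, 0.58 and 0.14 in FAKKD and -1.05, -1.07 and -0.99 in untreated FAKWT samples, a difference of 1.47 without overlap. It was -0.89, -0.77 and -0.65 in inhibitor and -0.43, -0.72 and -0.91 in vehicle samples, which overlapped, with a difference of -0.08. Vehicle samples were higher than untreated ones by 0.35, also without overlap. Over both FAK comparisons the mean difference of 0.70 did not pass (exact permutation p = 0.07, adjusted p = 0.07), though it did without vehicle replicate 3 (0.76, adjusted p = 0.035).

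**Figure D3:**
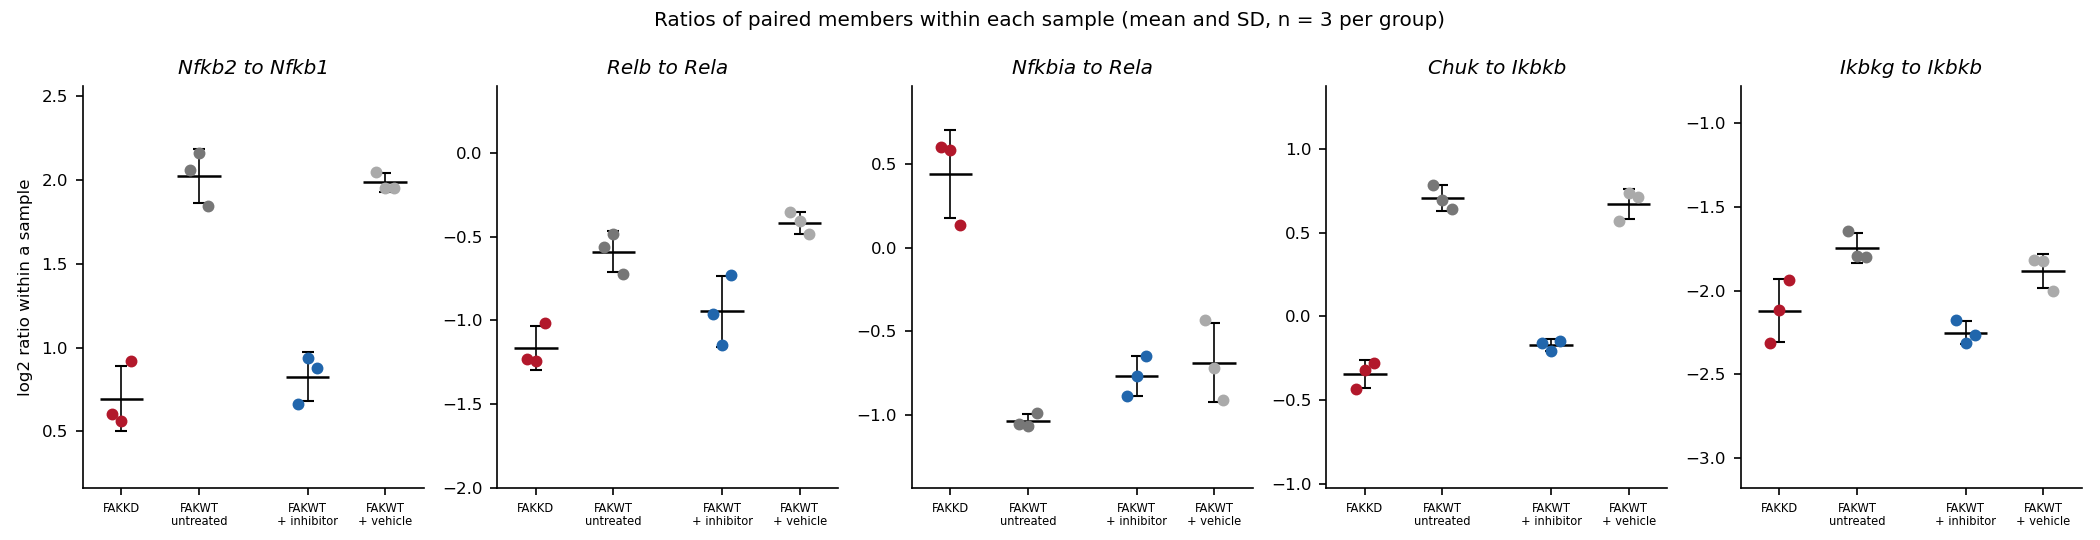
Log2 ratios of 5 pairs of genes within each sample (y axis, each panel spanning the same range), with points for samples, lines for group means and bars for SD (n = 3). Nfkb2 to Nfkb1 and Chuk to Ikbkb are lower in FAKKD and inhibitor samples than in their controls without overlap, while Nfkbia to Rela is higher in FAKKD than in untreated FAKWT samples and overlaps between inhibitor and vehicle samples.

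The FAKKD and inhibitor effects, which share no samples, were then tested against each other. Over all genes the median of this difference was 0.32 as deposited and 0.01 panel-centred, so deposited values are to be read against 0.32. On the deposited scale the difference passed for 3 members (23.9% of all genes), for 1 as higher in FAKKD (16.3%) and for 2 as lower (7.6%). Nfkbia had a difference of 1.01 ± 0.23 (adjusted p = 0.00825), Rela of -0.55 ± 0.11 (adjusted p = 0.00601) and Relb of -0.59 ± 0.14 (adjusted p = 0.0114). For Nfkb2 the deposited difference was -0.25 ± 0.16 (adjusted p = 0.271), with a 95% confidence interval from -0.60 to 0.09, and for Ikbkb it was -0.03 ± 0.12 (adjusted p = 0.881, -0.29 to 0.23). After panel centring 5 members passed (26% of all genes), 1 higher (11.2%) and 4 lower (14.8%), with Rela at -0.86 ± 0.15 (adjusted p = 0.00199), Relb at -0.90 ± 0.20 (adjusted p = 0.00697) and Chuk at -0.54 ± 0.15 (adjusted p = 0.0201). Nfkb2 at -0.56 ± 0.18 (adjusted p = 0.0366) and Nfkbia at 0.70 ± 0.22 (adjusted p = 0.0355) passed there as well. Each of these last 2 calls was lost when any of 7 single samples was left out, with values from -0.68 to -0.45 for Nfkb2 and from 0.59 to 0.85 for Nfkbia over the 12 omissions.

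**Figure D4:**
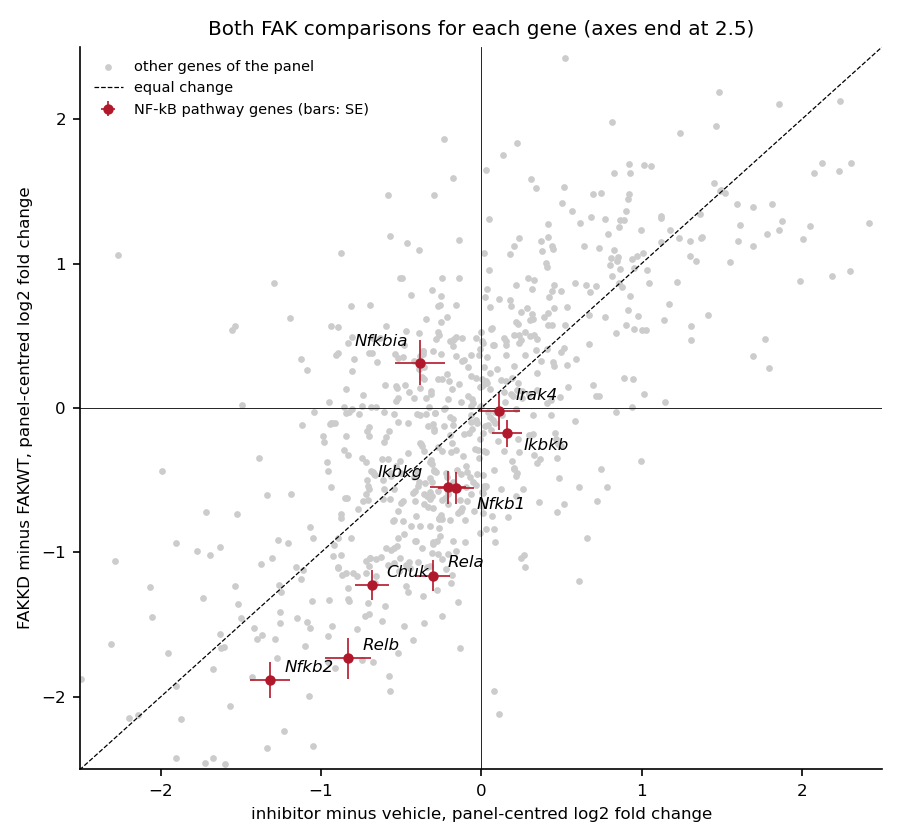
Panel-centred log2 fold change with the inhibitor against vehicle (x axis) and in FAKKD against untreated FAKWT samples (y axis) for each gene, with grey points for other genes, red points with SE bars for the 9 genes and a dashed line at equal change. Of 750 genes, 30 lie outside the axes. Nfkb2, Relb, Rela and Chuk lie below the dashed line in the lower left, and Nfkbia lies above it.

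The other genes of the pathway were taken from lists of adaptors, kinases and known targets. Of 24 measured adaptors and kinases between receptors and the IKK complex, 16 were called higher and 1 lower in FAKKD on the deposited scale, where 65.1% and 9.47% of all genes were. Panel-centred, 1 was higher and 16 lower, against 23.6% and 34.5% of all genes (median -0.60, against -0.10 over all genes). With the inhibitor 17 were higher and 1 lower as deposited (49.2% and 10.5% of all genes), and 2 higher and 9 lower panel-centred (17.7% and 28.8%; median -0.26, against -0.20). On the panel-centred scale its median lay below that of all genes in both comparisons. Irak2, a kinase next to Irak4 in the same receptor complex, fell on both scales in both comparisons, with recovered counts of 311, 234 and 424 in FAKKD and 1916, 1504 and 1444 in untreated FAKWT samples. Its log2 fold change was -1.41 ± 0.13 in FAKKD (adjusted p = 2.73e-06) and -0.98 ± 0.13 with the inhibitor (adjusted p = 5.73e-05), and panel-centred -2.46 and -1.72. Ticam2, an adaptor of Toll-like receptor 4, rose on both scales, with 1.86 ± 0.16 and 1.24 ± 0.16 as deposited and 0.81 and 0.50 panel-centred. Traf2, an adaptor of TNF receptors, had -1.17 ± 0.13 panel-centred in FAKKD (adjusted p = 7.52e-06) and -0.11 as deposited (adjusted p = 0.336), and with the inhibitor -0.66 (adjusted p = 0.00105) and 0.08 (adjusted p = 0.52). Traf3, a brake on the alternative branch, had -1.11 ± 0.13 panel-centred in FAKKD (adjusted p = 1.28e-05) and -0.90 ± 0.13 with the inhibitor (adjusted p = 1.19e-04), and as deposited -0.05 (adjusted p = 0.686) and -0.16 (adjusted p = 0.256). The receptor regulator Sigirr had 0.32 ± 0.17 panel-centred in FAKKD (adjusted p = 0.136) and 0.45 ± 0.17 with the inhibitor (adjusted p = 0.0489).

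Of 22 measured target genes of NF-kB, 11 were called higher and 4 lower in FAKKD as deposited, where 65.1% and 9.47% of all genes were. After centring 6 were higher and 7 lower, near the 23.6% and 34.5% of all genes, with a median of -0.08 against -0.10. With the inhibitor 7 were higher and 6 lower as deposited (49.2% and 10.5% of all genes), and 2 higher and 8 lower after centring (17.7% and 28.8%; median -0.49, against -0.20). The prostaglandin synthase gene Ptgs2 had recovered counts of 81, 128 and 57 in FAKKD and 2219, 1808 and 1472 in untreated FAKWT samples, and 156, 218 and 233 in inhibitor and 1272, 1584 and 1757 in vehicle samples. Its panel-centred log2 fold change was -4.53 ± 0.33 (adjusted p = 2.64e-07) and -3.10 ± 0.33 (adjusted p = 9.97e-06). The neutrophil chemokine gene Cxcl3 had 10, 2 and 8 counts in FAKKD and 98, 40 and 39 in FAKWT samples, and 21, 18 and 29 in inhibitor and 68, 75 and 107 in vehicle samples. Both genes fell in both comparisons, while the interleukin-6 gene Il6 went opposite ways. Il6 had 986, 1044 and 314 counts in FAKKD and 305, 316 and 303 in FAKWT samples (1.06 ± 0.40 panel-centred, adjusted p = 0.0368), and 107, 132 and 125 in inhibitor and 485, 467 and 619 in vehicle samples (-2.27 ± 0.40, adjusted p = 4.87e-04). The test of the difference between these effects gave 3.32 ± 0.56 for Il6 (adjusted p = 0.00173). The FAKKD count of 314 lay within the range of the FAKWT counts, so in counts the rise in FAKKD rests on the other samples. In the upward direction, the lymphotoxin gene Ltb, whose product signals through the alternative branch, had 1.51 ± 0.28 in FAKKD (adjusted p = 5.82e-04) and 1.49 ± 0.28 with the inhibitor (adjusted p = 9.15e-04), both panel-centred. The interleukin-1 alpha gene Il1a had 1.86 ± 0.30 panel-centred in FAKKD (adjusted p = 1.57e-04) but -0.24 ± 0.30 with the inhibitor (adjusted p = 0.554), where it had 99, 106 and 109 counts, against 131, 73 and 139 with vehicle. Cd83, a marker of activated antigen-presenting cells, had 1.16 ± 0.14 in FAKKD (adjusted p = 1.55e-05) and 1.30 ± 0.14 with the inhibitor (adjusted p = 1.16e-05).

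Among the 36 pairs of the 9 genes, likeness over the 12 samples was measured as the root mean square difference of log2 values centred for each gene, on which no sample factor acts. The closest pairs were Nfkb1 with Ikbkg (0.122), Ikbkb with Irak4 (0.126) and Rela with Chuk (0.162), and the most distant was Nfkb2 with Nfkbia (0.887). The median over pairs was 0.384, against 0.675 over pairs of 602 genes with a mean recovered count of at least 20. The members had mean counts from 199 (Ikbkg) to 1784 (Nfkb2), so these medians are not matched for abundance. Nfkb2 was closer to Relb (0.245) than to any other member. Of 593 genes outside the 9, those most like Nfkb2 were Mfge8 (0.118) and Erbb2 (0.146), those most like Relb were Axl (0.149) and Hif1a (0.151), and those most like Nfkbia were Serping1 (0.182) and Msr1 (0.185). For Nfkb1 they were Jak1 (0.0771) and Ifnar1 (0.0945), for Rela Bcl10 (0.0754) and Tollip (0.083), and for Irak4 Lamp2 (0.0532) and Ly96 (0.11). Chuk was nearest to Tmed1 (0.106) and Gpi1 (0.107), Ikbkb to Ifnar2 (0.0931) and Stat5b (0.095), and Ikbkg to Lamp1 (0.103) and Smad4 (0.105). These distances describe 12 samples in 4 groups and carry no test.

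The order of the 4 groups was read for each gene from its means, with neighbours called separate only where their samples did not overlap. For panel-centred Nfkb2 all 4 groups were separate: 9.62 ± 0.20 in FAKKD, 9.98 ± 0.19 in inhibitor, 11.30 ± 0.12 in vehicle and 11.51 ± 0.08 in untreated FAKWT samples (SD, n = 3 each). Relb had 7.97 ± 0.12 in FAKKD, 8.78 ± 0.30 in inhibitor, 9.61 ± 0.08 in vehicle and 9.70 ± 0.13 in untreated FAKWT samples, with the last 2 overlapping. Rela and Chuk kept the same order and the same overlap, with 9.13 ± 0.02 and 9.17 ± 0.03 in FAKKD and 10.29 ± 0.14 and 10.39 ± 0.10 in untreated FAKWT samples. Ikbkb and Irak4 spanned only 9.51 to 9.72 and 9.10 to 9.26 over the 4 group means, and every neighbouring pair overlapped. Ikbkg had 7.39 ± 0.12 in FAKKD and 7.47 ± 0.12 in inhibitor samples, which overlapped, and 7.68 ± 0.02 in vehicle and 7.94 ± 0.10 in untreated FAKWT samples, each separate. For Nfkb1 every neighbouring pair overlapped, between 8.93 ± 0.03 in FAKKD and 9.48 ± 0.11 in untreated FAKWT samples. Nfkbia had its highest mean in FAKKD (9.57 ± 0.27) and its lowest in inhibitor samples (8.96 ± 0.22), with every neighbouring pair overlapping.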

How the data were processed

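RNA of 2000000 ascites cells per sample was measured on a NanoString panel, which has 770 genes in the series' design text. The authors deposited normalized log2 values for 750 genes. How they normalized them (software, reference genes, background) was not given in the sources used here. In each sample 2 to the power of the deposited log2 value, over 1 factor, was a whole count for 100% of genes (tolerance 0.01). Pairs of replicates differed beyond counting noise (chi-square per degree of freedom 8.35 to 59.6), which does not show whether they came from separate mice. Each was counted as 1 sample.

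The values were tested as deposited and after each sample's median gene was set to a common value (panel-centred). limma 3.58.1 (R 4.3.3) fitted 4 group means to all 12 samples with trended eBayes, with no filter or pseudocount, and Benjamini-Hochberg adjustment over 750 genes. The fit was tested on simulated data. Within-sample ratios were tested by exact permutation. Alternatives were other variance models, array weights, only the 2 groups compared, a filter on low genes, quantile or total-count scaling, voom, another threshold, other controls and leaving out each sample. Symbols were matched to RefSeq (734 current, 8 synonyms, 8 unmatched). The members and lists were chosen with earlier results of these data known. Named from each list were up to 2 genes with the highest and lowest panel-centred change among those called, and for each member the 2 most alike genes with a mean count of at least 20. Figures were drawn with matplotlib 3.10.9.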

Additional observations from a re-analysis of the deposited data

Results flagged for a closer look

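The FAKKD effect differed from the inhibitor effect, by a limma test of the difference itself, (FAKKD minus untreated FAKWT) minus (inhibitor minus vehicle), for 3 of the 9 genes as deposited (23.9% of all genes) and for 5 after panel centring (26%). As deposited, the median difference over all genes was 0.32. On the deposited scale the difference was 1.01 ± 0.23 for Nfkbia (SE, adjusted p = 0.00825), -0.55 ± 0.11 for Rela (adjusted p = 0.00601) and -0.59 ± 0.14 for Relb (adjusted p = 0.0114). After panel centring it was 0.70 ± 0.22 for Nfkbia (adjusted p = 0.0355), -0.86 ± 0.15 for Rela (adjusted p = 0.00199), -0.90 ± 0.20 for Relb (adjusted p = 0.00697), -0.54 ± 0.15 for Chuk (adjusted p = 0.0201) and -0.56 ± 0.18 for Nfkb2 (adjusted p = 0.0366). The centred calls of Nfkb2 and Nfkbia were lost without a variance trend (adjusted p = 0.0663 and 0.0608) and in 7 of 12 omissions of a single sample each. Nfkbia, Rela and Relb differed on both scales, with the same sign. Panel-centred, 5 of 5 tumour markers were lower in FAKKD and 3 of 5 with the inhibitor (median log2 fold change -2.71 and -1.64), and their part in these differences was not tested. Groups of 3 samples were not tested for single samples that stand apart.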

How the results depend on the processing

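In every alternative run, Nfkb2 stayed lower and called in both FAK comparisons on both scales, as did Relb in FAKKD, and the ratios of Nfkb2 to Nfkb1, Relb to Rela, Chuk to Ikbkb and Ikbkg to Ikbkb kept their direction and passed. The count of members called for the difference between effects, panel-centred, was 5, fell to 3 without a variance trend, and ranged from 3 to 5 when single samples were left out (3 without FAKWT 2, FAKKD 3, FAKKD 4 or vehicle 4). The ratio of Nfkbia to Rela passed with untreated FAKWT as the control of both (0.87, adjusted p = 0.0476), and ranged from 0.64 to 0.77 when single samples were left out. Panel-centred directions turned without the 25% lowest genes for Ikbkb (0.14) and Irak4 (0.30) in FAKKD and for Nfkb1 (0.18), Rela (0.034) and Ikbkg (0.13) with the inhibitor. Under quantile normalization they turned for Ikbkb (0.17) and Irak4 (0.34) in FAKKD and Nfkb1 (0.090) with the inhibitor, and Irak4 in FAKKD was 0.017 with total-count scaling and 0.016 with voom. The shift of the common median (0.32 and 0.34 with the filter) is part of these changes by construction. Leaving out single samples gave ranges across 0 for vehicle against FAKWT as deposited (Nfkb1 -0.11 to 0.033, Chuk -0.084 to 7.8e-04, Ikbkb -0.074 to 0.034) and after centring (Nfkbia -0.0066 to 0.14, Irak4 -0.051 to 0.11), for the deposited difference between effects (Ikbkb -0.089 to 0.021, Ikbkg -0.076 to 0.034), and for Irak4 in FAKKD after centring (-0.078 to 0.064). None of these 8 values had passed. Against untreated FAKWT instead of vehicle, the inhibitor change passed for Nfkbia as deposited (0.56, adjusted p = 0.00939) and for Nfkb1 (-0.32, adjusted p = 0.0274) and Ikbkg (-0.47, adjusted p = 0.00418) after centring. No paired analysis was possible because the groups compared share fewer than 2 replicate numbers. Counting error limits these genes little, and 3 samples a group limit them more.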
